A study of Mus musculus with 8 samples.

Results

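Krüppel-like factors are zinc-finger transcription factors, and several of them hold T cells in a resting state. 8 members of the family were followed here, namely Klf2, Klf3, Klf4, Klf6, Klf7, Klf10, Klf12 and Klf13, out of 18194 genes that have at least 1 probe set of their own on the array. They were chosen by name, and every probe set that the platform annotation assigns to 1 of these genes was used. This gave 28 probe sets, of which 23 were bright enough to be tested, with at least 1 tested for each of the 8 genes.

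The samples were CD8 memory T cells taken directly from old female mice. Each of 4 mice gave an age-associated clonal expansion, sorted as cells with surface CD8, CD122 (a chain of the interleukin-2 receptor that is high on memory CD8 cells) and a particular T cell receptor V beta chain and without MHC class II, and a polyclonal partner, sorted in the same way but lacking that V beta chain. The sort chain differed between the mice, so each expansion stands for 1 receptor family of 1 animal, and no sample was pooled across animals as far as the labels say. Mice 1 and 2 were aged 20 months and mice 3 and 4 were aged 23 months; mouse 4 was of the B10.BR strain and the other 3 were C57BL/10SnJ, and no mouse is labelled as treated or genetically altered. Expansion 1 is labelled integrin alpha4-high and expansions 2, 3 and 4 alpha4-low, and these subclasses were kept apart. The descriptions of expansions 3 and 4 number them 4 and 5, while their titles give 3 and 4. Sort purity in the expansions ran from 91 to 98%, whereas the polyclonal samples of mice 1 and 4 were 97% pure, that of mouse 2 was 75% pure and that of mouse 3 was 66% pure. All 8 markers of CD8 T cells were above background on all 8 arrays. The marker Cd4 was above it on 2, namely polyclonal samples 2 and 3, at signals of 43.9 and 101.4. Background on these arrays was 43.6 and 34.7, so the value in polyclonal sample 2 was barely above it.

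In resting T cells KLF2 switches on genes for exit from and entry into lymphoid organs, including the sphingosine-1-phosphate receptor S1pr1, and restrains division; its transcript is lost quickly after the T cell receptor is engaged. KLF4 restrains the proliferation of CD8 T cells. KLF3 and KLF12 are repressors that act through the corepressor CtBP, KLF10 is induced by TGF-beta and restrains growth, KLF13 binds the promoter of the chemokine gene Ccl5 in T cells that were activated some time before, and KLF6 and KLF7 are broadly expressed members whose roles in T cells are less well defined. KLF proteins bind CACCC boxes and GC-rich elements, and Klf2 itself is switched on by FOXO proteins and by MEF2 proteins downstream of the kinase ERK5.

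The promoters of Klf2 and Klf4 are given because these genes are the members best known for T cell quiescence and because they behaved differently across these mice. The 8 genes lie on 8 different chromosomes. Both sequences are from RefSeq on GRCm38.p6 and run from 250 bases before to 50 bases after the annotated start. Klf2 lies at chr8:72318812-72319111 on the plus strand and Klf4 at chr4:55532426-55532725 on the minus strand. Capitals mark each match, on either strand, to the CACCC box or to GGGCG, the core of the GC box.
Klf2: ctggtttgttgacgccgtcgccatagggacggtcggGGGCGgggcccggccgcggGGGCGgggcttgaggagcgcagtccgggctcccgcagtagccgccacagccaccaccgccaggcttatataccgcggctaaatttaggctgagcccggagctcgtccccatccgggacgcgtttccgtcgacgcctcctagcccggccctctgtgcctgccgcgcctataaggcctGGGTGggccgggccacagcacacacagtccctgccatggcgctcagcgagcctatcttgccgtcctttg
Klf4: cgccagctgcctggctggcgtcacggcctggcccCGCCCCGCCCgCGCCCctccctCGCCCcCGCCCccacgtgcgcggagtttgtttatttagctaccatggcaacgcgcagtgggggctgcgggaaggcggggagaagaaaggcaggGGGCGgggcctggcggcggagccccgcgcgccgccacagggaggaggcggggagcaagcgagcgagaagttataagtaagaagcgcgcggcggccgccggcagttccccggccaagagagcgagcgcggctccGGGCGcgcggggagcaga
The Klf2 window held 1 CACCC and 2 GGGCG matches, and the Klf4 window held 0 CACCC and 7 GGGCG matches. Of 32851 promoters of this length, 57.5% held at least 1 CACCC and 47% at least 1 GGGCG. At least 2 GGGCG matches, as in Klf2, were in 31% of them and at least 7, as in Klf4, in 3.59%. A promoter sequence was available for 7 of the 8 members, and Klf10, which had none, was not searched. The Klf3 window had the most matches among the 7, with 5 to CACCC and 7 to GGGCG, which shared no bases with each other. The exact sequences TGTTTAC, a form of the forkhead motif (in 3.65% of all promoters), and TATTTATA, a form of the MEF2 motif (in 1.7%), had no match in any of the 7 windows. Other forms of these motifs were not searched, so forkhead or MEF2 sites may still be present.

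Array signals below are the deposited intensities, and each difference is an expansion minus its own polyclonal partner in log2(signal + 5), so that a difference of 1 is about a 2-fold change. Background is the 95th percentile of 27 bacterial control probe sets on each array and lay between 33.7 and 61.9. Of the 28 Klf probe sets, 17 were above background on all 8 arrays and 0 were below it on every array. These are bulk samples, so fewer cells that express a gene and less of its RNA per cell cannot be told apart.

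In none of the 3 comparisons did a Klf probe set reach a limma adjusted p under 0.05. For the alpha4-low expansions against their partners, limma called 12 of 22518 probe sets (0.0533%; 1 higher and 11 lower), and 0 of the 23 Klf probe sets, whose adjusted p ran from 0.889 to 1. For the difference between the alpha4-low and alpha4-high subclasses it called 12 (0.0533%) and again 0 Klf probe sets, with adjusted p from 0.678 to 1. Over all 4 pairs it called 0 (0%), and every Klf probe set had a limma adjusted p of 1. An unadjusted limma p under 0.05 was reached by 3 of 23 Klf probe sets in the alpha4-low comparison against 5.11% of all probe sets tested, by 2 for the subclass difference against 6.57%, and by 0 over all pairs against 3.25%. Of the 23 Klf probe sets 5 were lower in all 3 alpha4-low pairs, where 15.0% of all tested probe sets were, and 2 were higher in all 3, where 9.99% were. The alpha4-low coefficient was negative for 15 and positive for 8 Klf probe sets, with a median of -0.23 beside -0.07 for all tested probe sets.

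Klf2, the quiescence and trafficking factor, has 1 probe set (1448890_at), and it was lower in every alpha4-low expansion and higher in the alpha4-high one. Its signals were 1762, 1515, 525 and 342.0 in expansions 1 to 4 and 902, 3253, 1281 and 475 in polyclonal samples 1 to 4. Within the pairs expansion 1 was therefore the only one above its partner, while the alpha4-low expansions and their partners overlapped in level. The pair differences were 0.96 for pair 1, -1.10 for pair 2, -1.28 for pair 3 and -0.47 for pair 4. The alpha4-low mean was -0.95 ± 0.43 (SD, n = 3), with a 95% confidence interval from -1.85 to -0.05, a limma p of 0.0405 and a limma adjusted p of 0.965. The difference between subclasses was -1.91 with a standard error of 0.83 (unadjusted limma p of 0.0393 and limma adjusted p = 0.704), and it rests on the lone alpha4-high pair. A sign in pair 1 opposite to all 3 alpha4-low pairs was shared by 4 of 23 Klf probe sets and by 14.2% of all tested. The partners of pairs 2 and 3, where the Klf2 difference was widest, are also the samples of lowest sort purity, and with purity as a covariate the alpha4-low value was -0.46 (limma adjusted p = 1).

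**Figure D1:**
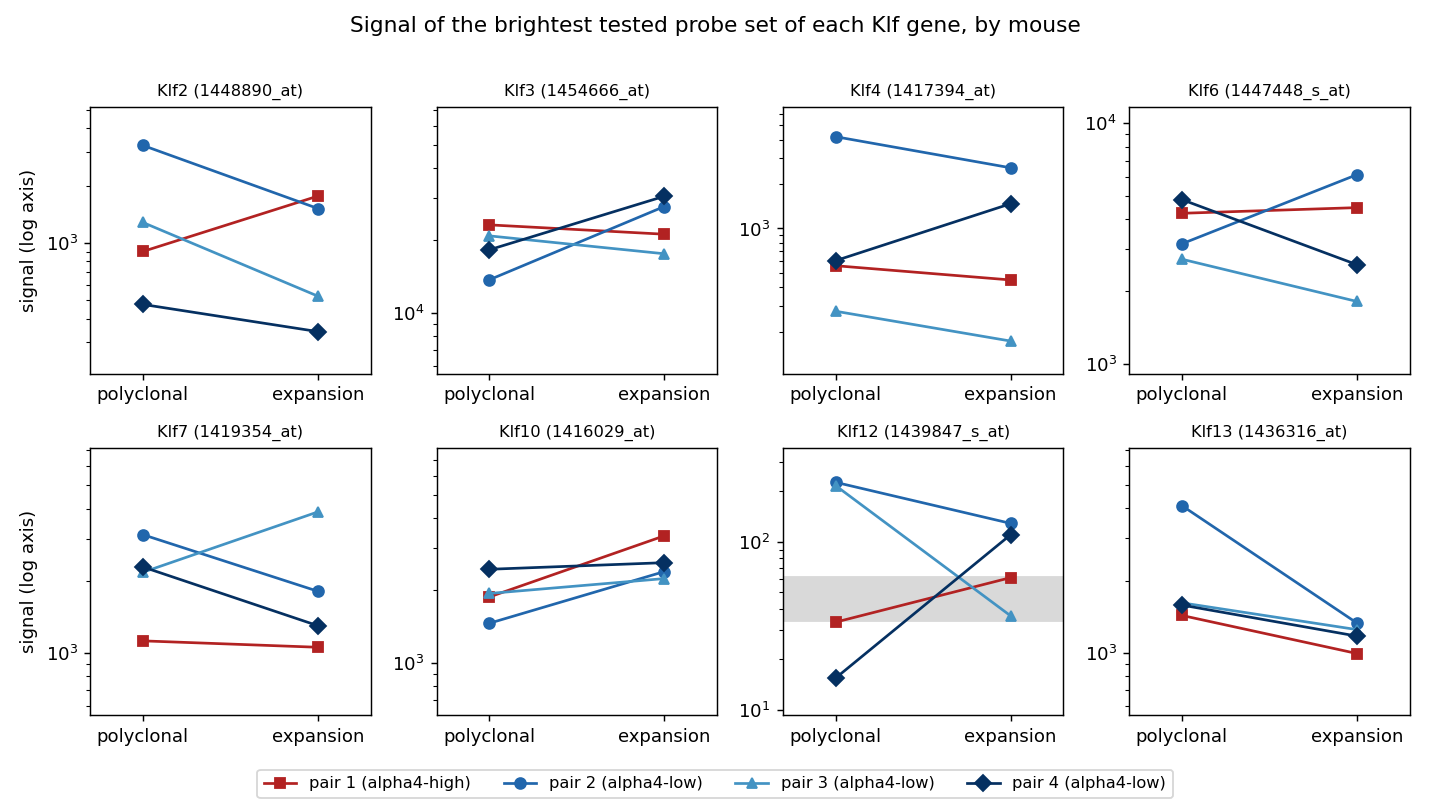
Signal (log axis) of the brightest tested probe set of each of the 8 Klf genes in the polyclonal sample and the expansion of each mouse, joined by a line per mouse; the grey band in the Klf12 panel is the range of background over the arrays, 33.7 to 61.9. For Klf2 the alpha4-high pair runs upwards and the 3 alpha4-low pairs downwards, Klf13 runs downwards in 4 of 4 pairs, and the Klf4 lines are spread by mouse.

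Klf4, the restraint on CD8 T cell proliferation, was set apart by mouse rather than by expansion. For probe set 1417394_at the signals were 449, 2574, 173 and 1472 in expansions 1 to 4 and 560.1, 4181, 276 and 606 in polyclonal samples 1 to 4. Both samples of mouse 2 were the highest and both samples of mouse 3 the lowest, and the order of the mice (2, 4, 1, 3) was the same among the expansions as among the polyclonal samples. The pair differences were -0.32, -0.70, -0.66 and 1.27 for pairs 1 to 4, and the alpha4-low mean was -0.03 ± 1.13 (SD, n = 3; 95% confidence interval from -1.07 to 1.02, limma adjusted p = 0.999). The SD of the 4 mouse means was 1.64 on the log2 scale, where the median over all tested probe sets was 0.48 and 1.22% were at or above Klf4.

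The other Klf4 probe set (1417395_at) followed it over the arrays (r = 0.901 over 8 arrays, which share mice in pairs). Its signals were 85.2, 322, 3.72 and 178 in expansions 1 to 4 and 68.7, 703, 85.9 and 139 in polyclonal samples 1 to 4. Expansion 3 lay below background, so the size of the difference in pair 3, -3.38, is not exact. The alpha4-low mean of -1.38 ± 1.88 (SD, n = 3) had a limma p of 0.0477 and an adjusted p of 0.966, and its sign turned to 0.69 with purity as a covariate. It was -0.38 without pair 3 and -2.25 without pair 4 (limma adjusted p = 0.95 and 0.139). The 2 probe sets of Klf4 thus disagreed in the size of the alpha4-low difference but shared the spread between mice, which for this one was an SD of 1.72, reached by 0.902% of all tested probe sets.

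The immediate early genes, which cells switch on within minutes of a stimulus, held the gene closest to Klf4 over the 8 arrays. Jun, a subunit of the AP-1 factor, had the highest correlation with Klf4 of any of the tested genes with a name (r = 0.938, Spearman 0.929; 0.836 without both mouse 2 samples, which lie farthest from the median). Its signals were 376, 1096, 143 and 460.2 in expansions 1 to 4 and 553, 1170.1, 185 and 398 in polyclonal samples 1 to 4. As for Klf4, mouse 2 was highest and mouse 3 lowest in both populations. Fos, the partner of Jun in AP-1, and Dusp1, a phosphatase that ends MAP kinase signalling, were picked out after their values had been seen. Fos had signals of 5689, 21875, 1350.4 and 14418 in the expansions and 7983, 23914, 1128 and 9194 in the polyclonal samples, in the same order of mice as Klf4 (r = 0.92; 0.912 without the mouse 2 samples). Dusp1 had 4254, 18124, 325 and 1741 in the expansions and 2541, 14399, 512 and 2157 in the polyclonal samples (r = 0.872; 0.656 without the mouse 2 samples).

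The list as a whole did not follow Klf4 evenly. Of 16 tested immediate early genes 14 had a correlation with Klf4 above 0, but the median was 0.275, beside 0 over all tested probe sets, and Egr3 ran the other way at -0.773. The SD of the mouse means was above the median of all tested probe sets for 11 of the 16. The heat shock genes Hspa1a and Hspa1b, which the list includes and which count among the 16, also differed widely between mice, with SDs of 2.15 and 2.24. They were highest in mouse 1 and had correlations with Klf4 of 0.223 and 0.042. For Klf2 the order of mice among the expansions differed from that among the polyclonal samples, and the SD of its mouse means was 1.03. The correlation of Klf2 was 0.229 with Fos, 0.493 with Jun, 0.61 with Dusp1 and 0.413 with Klf4. Over the 16 immediate early genes its median correlation was 0.551, above the 0.275 of Klf4. What set the difference between the mice was not tested.

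**Figure D2:**
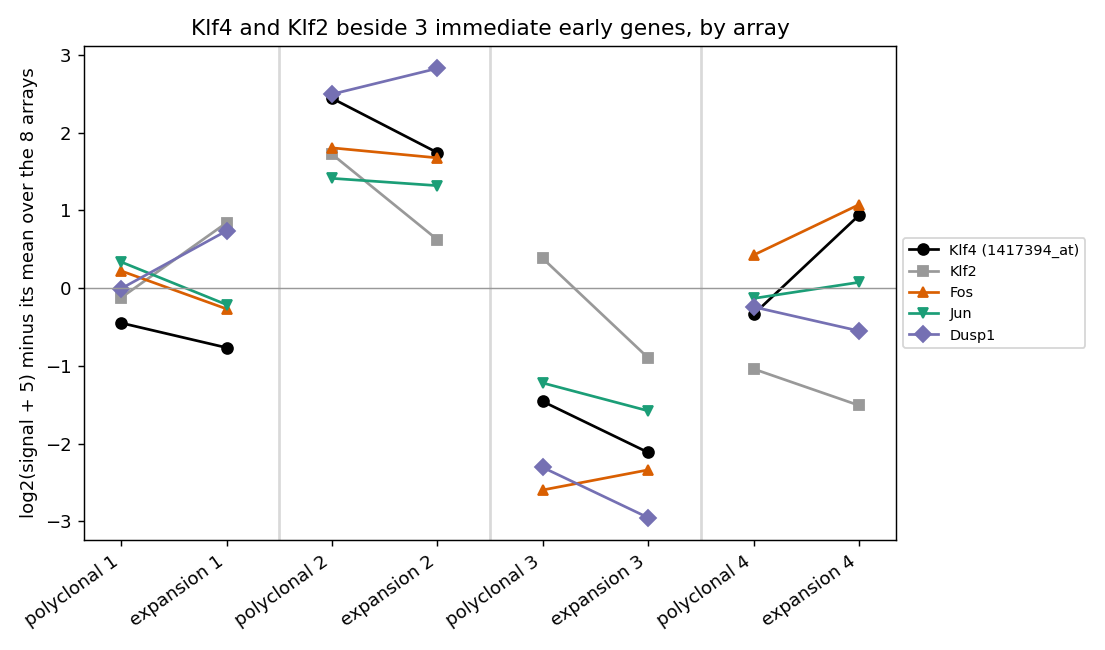
Log2(signal + 5) of Klf4 (1417394_at), Klf2, Fos, Jun and Dusp1 on each of the 8 arrays, each shown as the difference from its own mean over the arrays, with the polyclonal sample and the expansion of a mouse joined by a line. Klf4, Fos, Jun and Dusp1 are above their means in both mouse 2 samples and below them in both mouse 3 samples, with mouse-mean SDs of 1.64, 1.80, 1.13 and 2.18, while Klf2 is above its mean in polyclonal sample 3.

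The CtBP-dependent repressors Klf3 and Klf12 gave no common direction. The brightest Klf3 probe set (1454666_at) had signals of 21207, 27658, 17583 and 30512 in expansions 1 to 4 and 23196, 13695, 20877 and 18257 in polyclonal samples 1 to 4. It was higher in expansions 2 and 4 and lower in expansions 1 and 3, with an alpha4-low mean of 0.50 ± 0.66 (SD, n = 3; limma adjusted p = 0.989). This mean was 0.25 without pair 2 and 0.88 without pair 3, and 0.26 with quantile normalization. The mice were closely alike for this probe set, with an SD of their means of 0.15. The other 5 tested Klf3 probe sets had alpha4-low values between -0.99 and 0.01. Correlations between pairs of Klf3 probe sets over the 8 arrays ran from -0.681 to 0.757, so a level of Klf3 transcript cannot be read from all of them alike.

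1 Klf3 probe set, 1442920_at, had the lowest unadjusted p of the Klf probe sets for the subclass difference. Its signals were 4.30, 59.9, 230.2 and 110.4 in expansions 1 to 4 and 59.7, 156, 157 and 61.1 in polyclonal samples 1 to 4. Expansion 1 was the only sample below background, far under every other sample, and the subclass difference of 2.81 with a standard error of 1.17 (unadjusted limma p of 0.0332 and limma adjusted p = 0.678) therefore rests on that value. Pseudocount 30 in place of 5 moved it to 1.40. A seventh Klf3 probe set, 1458487_at, was too dim to be tested. It was above background only in polyclonal samples 2 and 3, at 125.7 and 58.4, and the expansions were between 4.44 and 21.5.

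Klf12 was dim, with some arrays below background for each of its probe sets. Its brightest probe set (1439847_s_at) had signals of 61.2, 129, 36.2 and 110.3 in expansions 1 to 4 and 33.2, 226.5, 217 and 15.4 in polyclonal samples 1 to 4, and was above background on 5 of 8 arrays. The alpha4-low pairs differed by -0.79, -2.43 and 2.50, with a mean of -0.24 ± 2.51 (SD, n = 3; limma adjusted p = 0.997), so that the spread between pairs was about as large as any single difference. The other tested probe set, 1455521_at, was above background on 6 arrays, had an alpha4-low value of 0.66 ± 1.11 (SD, n = 3; limma adjusted p = 0.989) and had a correlation of 0.032 with the first. The 3 untested Klf12 probe sets were above background on 4, 2 and 1 of the 8 arrays, the brightest value being 262 for 1439846_at in polyclonal sample 2.

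Klf10, the TGF-beta-induced member, had a higher signal in every expansion than in its partner, as 4.79% of all tested probe sets did. Its 1 probe set (1416029_at) had signals of 3376, 2397, 2241 and 2610.3 in expansions 1 to 4 and 1878, 1459.8, 1943 and 2449.8 in polyclonal samples 1 to 4. The pair differences were 0.84, 0.71, 0.21 and 0.09, and the mean of the alpha4-low pairs was 0.34 ± 0.33 (SD, n = 3; limma adjusted p = 0.989) and 0.15 without pair 2. Over all 4 pairs the coefficient was 0.46 with a 95% confidence interval from -0.21 to 1.14 (limma adjusted p = 1). The genes most like Klf10 over the arrays were Zfp54, a zinc-finger gene (r = 0.968), Sgo1, which protects the cohesion of sister chromatids (r = 0.958), and Mki67, the proliferation marker Ki-67 (r = 0.957). Mki67 had signals of 7750, 5277, 4560 and 4582 in expansions 1 to 4 and 2746, 2428, 3071 and 4658 in polyclonal samples 1 to 4, so that it was higher in expansions 1 to 3 and close to its partner in pair 4.

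Klf13, the factor of the Ccl5 promoter, ran opposite to Klf10 at its brightest probe set, with a correlation of -0.851 over the 8 arrays. This was picked out as the largest in size of all correlations between members at their brightest probe sets. The brightest Klf13 probe set (1436316_at) had signals of 995, 1333, 1251 and 1176 in expansions 1 to 4 and 1434, 4108, 1618 and 1583.5 in polyclonal samples 1 to 4. It was the 1 Klf probe set lower in 4 of 4 pairs, as 6.05% of all tested probe sets were. It was also the 1 Klf probe set for which all 4 expansions lay below all 4 polyclonal samples without overlap, which held for 0.635% of all tested. The pair differences were -0.52, -1.62, -0.37 and -0.43, the widest being that of mouse 2, whose polyclonal signal stood far above the rest. The alpha4-low mean was -0.81 ± 0.71 (SD, n = 3; limma adjusted p = 0.967), and without pair 2 it was -0.40. Over all pairs the coefficient was -0.74 with a 95% confidence interval from -1.48 to 0.01 (limma adjusted p = 1).

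Other Klf13 probe sets did not share that pattern. 1432543_a_at, with signals between 128.1 and 742, differed by -1.89 in pair 2 and by 0.18, 0.64 and 0.33 in pairs 1, 3 and 4. The third, 1456030_at, was untested and above background on 2 arrays. Ccl5, the chemokine gene that KLF13 activates, was far above background in every sample, with signals of 37708, 31161, 49243 and 22775 in expansions 1 to 4 and 26536, 42268, 32981 and 23898 in polyclonal samples 1 to 4, and an alpha4-low difference of 0.02 (limma adjusted p = 0.999).

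Klf6, a member with broad expression, had 5 probe sets, all above background on all 8 arrays. The brightest (1447448_s_at) had signals of 4457, 6114, 1813 and 2579.7 in expansions 1 to 4 and 4221, 3150.0, 2719 and 4814 in polyclonal samples 1 to 4, and followed 1433508_at (r = 0.918). It was higher in expansion 2 and lower in expansions 3 and 4, with an alpha4-low mean of -0.18 ± 0.99 (SD, n = 3; limma adjusted p = 0.996). Probe set 1427742_a_at was lower in every alpha4-low expansion, with signals of 153, 210.0, 156 and 43.2 in expansions 1 to 4 and 117, 498, 270.4 and 152 in polyclonal samples 1 to 4. Its alpha4-low mean of -1.23 ± 0.46 (SD, n = 3) had the lowest unadjusted limma p of the Klf probe sets, 0.0136, with an adjusted p of 0.889. In contrast 1418280_at was higher in 4 of 4 pairs, by 0.78, 0.22, 0.74 and 0.07 (alpha4-low limma adjusted p = 0.989), and 1459718_x_at ranged from -0.32 to 2.44 between pairs. The Klf6 probe sets therefore pointed both ways within the same samples.

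Klf7 had 4 probe sets, 3 of which followed each other over the arrays at correlations of 0.818 to 0.91. The brightest, 1419354_at, had signals of 1058, 1809, 3874 and 1301 in expansions 1 to 4 and 1125, 3114, 2171 and 2285 in polyclonal samples 1 to 4. Expansion 3 was above its partner and expansions 1, 2 and 4 below theirs, with an alpha4-low mean of -0.25 ± 0.94 (SD, n = 3; limma adjusted p = 0.996). 1449439_at, the exception, was lowest in expansion 1, at 491 against 823.9 to 1735 in the other 7 samples, and its subclass difference was 1.62 with a standard error of 0.85 (limma adjusted p = 0.848).

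**Figure D3:**
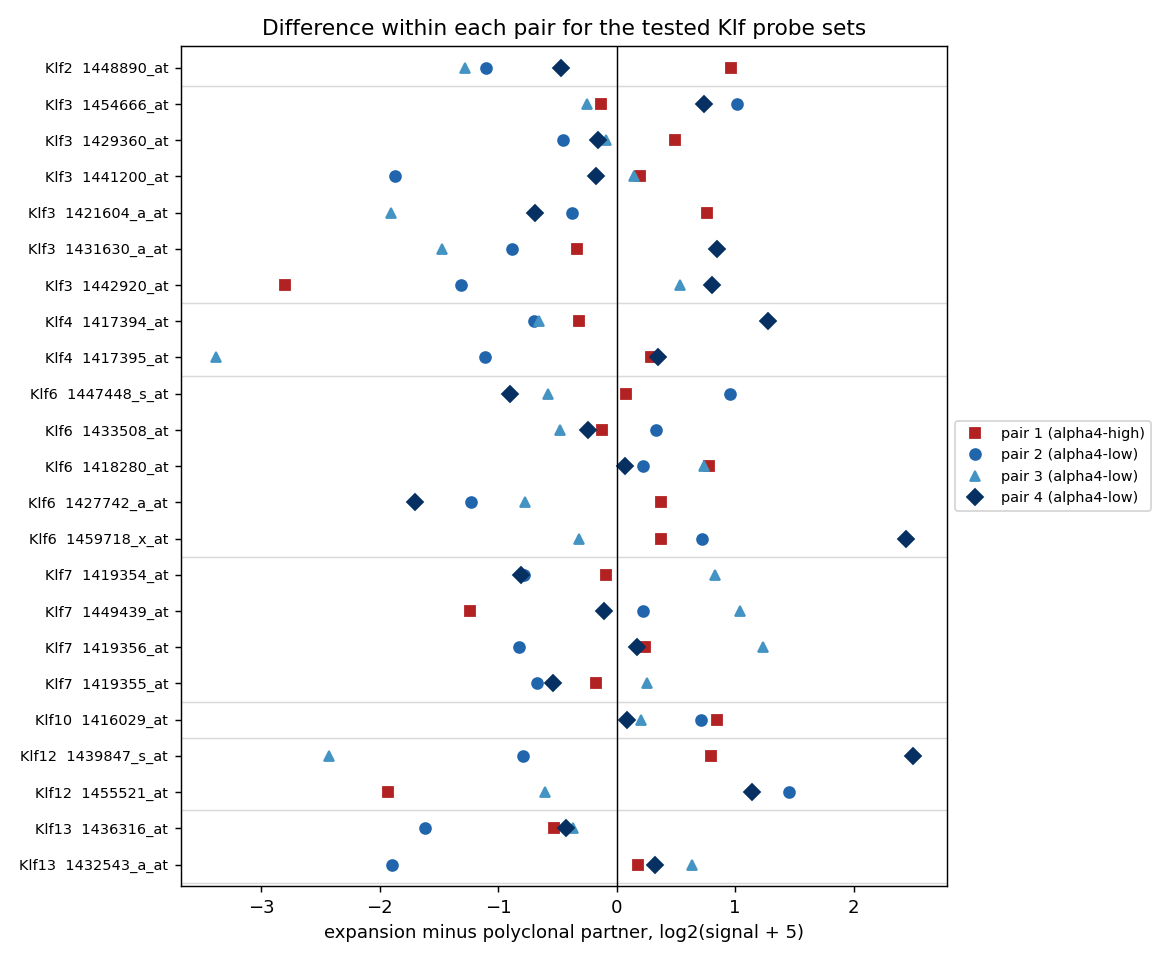
Difference of expansion minus polyclonal partner in log2(signal + 5) for each of the 23 tested Klf probe sets (rows, brightest first within each gene), with 1 marker per pair. The markers of different pairs lie on both sides of 0 for 20 of the 23 probe sets; Klf6 1418280_at and Klf10 are above 0 and Klf13 1436316_at below 0 in 4 of 4 pairs.

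Each member had its own companions by correlation over the 8 arrays. Klf2 was closest to Trabd (r = 0.992), B4galt1, a galactosyltransferase gene (0.988), and Snhg8, a host gene of a small nucleolar RNA (0.984). Snhg8 had signals of 13408, 13122, 8789 and 7264 in expansions 1 to 4 and 11538, 20332, 11784 and 8651 in polyclonal samples 1 to 4, and the order of the 8 samples was that of Klf2. Klf3 was closest to Rad52, a DNA repair gene, Klf6 to Fam98b, Klf7 to Gtpbp2, Klf12 to Katnal1 and Klf13 to Mcm3, a subunit of the replicative helicase, at 0.981, 0.975, 0.989, 0.982 and 0.975. Without the 2 samples farthest from the Klf13 median the correlation with Mcm3 was 0.683. With 18437 named probe sets set against 8 arrays, high values arise easily, and these are given as a description.

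Genes that KLF2 is known to switch on had lower mean values in the alpha4-low expansions, and none passed the test. All 4 measured genes of this group had a negative alpha4-low coefficient, with a median of -0.74 beside -0.07 for all tested probe sets. Ccr7, the lymph node homing receptor, was close to background (64.2, 35.5, 62.0 and 37.5 in expansions 1 to 4, and 26.3, 155, 116 and 37.6 in polyclonal samples 1 to 4), with a value of -0.95 (limma adjusted p = 0.988). Itgb7, an integrin chain of gut homing, was lower in expansions 1, 2 and 4 and higher in expansion 3, with signals of 1009, 873, 3826 and 681.5 in expansions 1 to 4 and 1405.5, 4166, 2272 and 1645 in polyclonal samples 1 to 4. Its alpha4-low value was -0.92 (limma adjusted p = 0.97). Without pair 3, the alpha4-low pair that ran the other way, it was -1.76 (limma adjusted p = 0.0361). That omission was picked out because of the direction of pair 3, and it leaves pairs 2 and 4. The lower p-value follows from this choice and does not count as a passed test for Itgb7. Leaving out that pair also raised the count of all called probe sets from 12 to 138. S1pr1 had -0.57 (limma adjusted p = 0.989), which was 0.09 with purity as a covariate, and Cd55, a complement regulator, had -0.21 (limma adjusted p = 0.996). Of the genes that rise where KLF2 is lost, the chemokine receptor gene Cxcr3 was the 1 tested, at -0.08 (limma adjusted p = 0.997).

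The upstream activators of KLF2 and KLF4 did not move one way. Of 9 tested, 4 had a positive and 5 a negative alpha4-low coefficient (median -0.05), and 0 passed the test in any comparison. Foxo3, a forkhead factor, was low in expansion 1, with signals of 1289.8, 4957, 4390.0 and 3947 in expansions 1 to 4 and 4197, 3013.5, 2608 and 3649.7 in polyclonal samples 1 to 4. Expansion 1 was thus below all other samples for Foxo3 while it was second only to polyclonal sample 2 for Klf2, and the subclass difference was 2.22 (limma adjusted p = 0.547). Mapk7, which encodes ERK5, had an alpha4-low value of -1.28 and was above background on 5 of 8 arrays (limma adjusted p = 0.966). Map3k3, a kinase upstream of ERK5, had 0.57 and Mef2d -0.46 at their brightest probe sets (limma adjusted p = 0.989 for each). The other tested probe sets of both genes had the opposite sign, at -0.46 for Map3k3 1426686_s_at, 0.62 for Mef2d 1437300_at and 0.20 for Mef2d 1421388_at.

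Among genes whose products degrade KLF proteins or act with them, none passed the test. Of 9 tested, 5 were positive and 4 negative in the alpha4-low pairs (median 0.08). Wwp1, a ubiquitin ligase of KLF2, had 0.35, Smurf1, another ubiquitin ligase, -0.32, the corepressor Ctbp1 -0.34 and the corepressor Sin3a -0.17, and the lowest limma adjusted p was 0.989. These are the brightest probe sets, and dimmer ones could differ. Fbxw7, a subunit of a ubiquitin ligase, was picked out after its values had been seen, with -0.17 at its brightest probe set and -1.12 at 1424986_s_at, which was lower in 4 of 4 pairs (limma adjusted p = 0.919).

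The list of other genes linked to T cell quiescence, which also holds the KLF13 target Ccl5 and the TGF-beta pathway genes Smad7 and Tgfb1, had 9 positive and 9 negative values among 18 tested (median -0.0009). Cdkn1a, the cell cycle inhibitor p21, was higher in 4 of 4 expansions, with signals of 89.7, 144, 258 and 81.9 in expansions 1 to 4 and 48.3, 51.6, 98.7 and 66.8 in polyclonal samples 1 to 4. Its alpha4-low value was 1.0 (limma adjusted p = 0.966). Smad7, an inhibitor of TGF-beta signalling, also had 1.0 (limma adjusted p = 0.963), at the brighter of its 2 tested probe sets. Slfn2, needed for the quiescence of mouse T cells, had -0.92 (limma adjusted p = 0.977), and the forkhead gene Foxp1 had 0.79 (limma adjusted p = 0.988), its 8 tested probe sets giving values of both signs.

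Within the pairs the immediate early genes were uneven. Of 16 tested, 12 had a negative alpha4-low coefficient (median -0.42) and 0 passed the test, 5 were lower in all 3 alpha4-low pairs, and in pair 4 as many were higher (8) as lower (8). Egr2 had -1.41 (limma adjusted p = 0.944), Ier2 -1.22 (limma adjusted p = 0.966), Ier3 -1.13 (limma adjusted p = 0.908) and Egr1 -1.04 (limma adjusted p = 0.963). These are the brightest probe sets, and dimmer ones differed. Egr2 had -0.37 at 1427682_a_at, and its widest pair difference at the brightest was -3.51, in pair 3. Jun had -0.08 at its brightest probe set and -1.93 at 1417409_at (limma adjusted p = 0.411). Ier5 had -0.65 at its brightest and 0.17 at 1460009_at. Ier3, an early gene of cell survival, had signals of 3084, 833.0, 917 and 566 in expansions 1 to 4 and 866, 2299, 2283 and 874 in polyclonal samples 1 to 4, higher in the alpha4-high expansion and lower in the 3 alpha4-low ones as Klf2 was. Its correlation with Klf2 over the arrays was 0.772, where the 16 genes ran from -0.346 for Egr3 to 0.857 for Ier2 with a median of 0.551. With purity as a covariate the alpha4-low values of Egr2 and Ier2 became 0.13 and 0.26.

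Among the KLF genes outside the 8 members, 4 of 9 were tested. Klf16 had an alpha4-low value of 0.59, Klf9 0.43, Klf11 -0.40 and Klf14 0.11, with a lowest limma adjusted p of 0.989. At 1428289_at, the brightest of its 3 tested probe sets, Klf9 was far higher in expansion 3, at 5399, than in the other samples, which ran from 859 to 1695, and without pair 3 its value was -0.68. The other Klf9 probe sets did not share this, with 716 in expansion 3 and 1051 in its partner at 1428288_at, and 3849 in expansion 3 beside 3212 in polyclonal sample 2 at 1456341_a_at. Of the related Sp factors 5 of 7 were tested, with a median of 0.21; Sp4 had 0.68, Sp7 -0.48, Sp6 0.45 and Sp1 0.21, and the lowest limma adjusted p was 0.984.

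**Figure D4:**
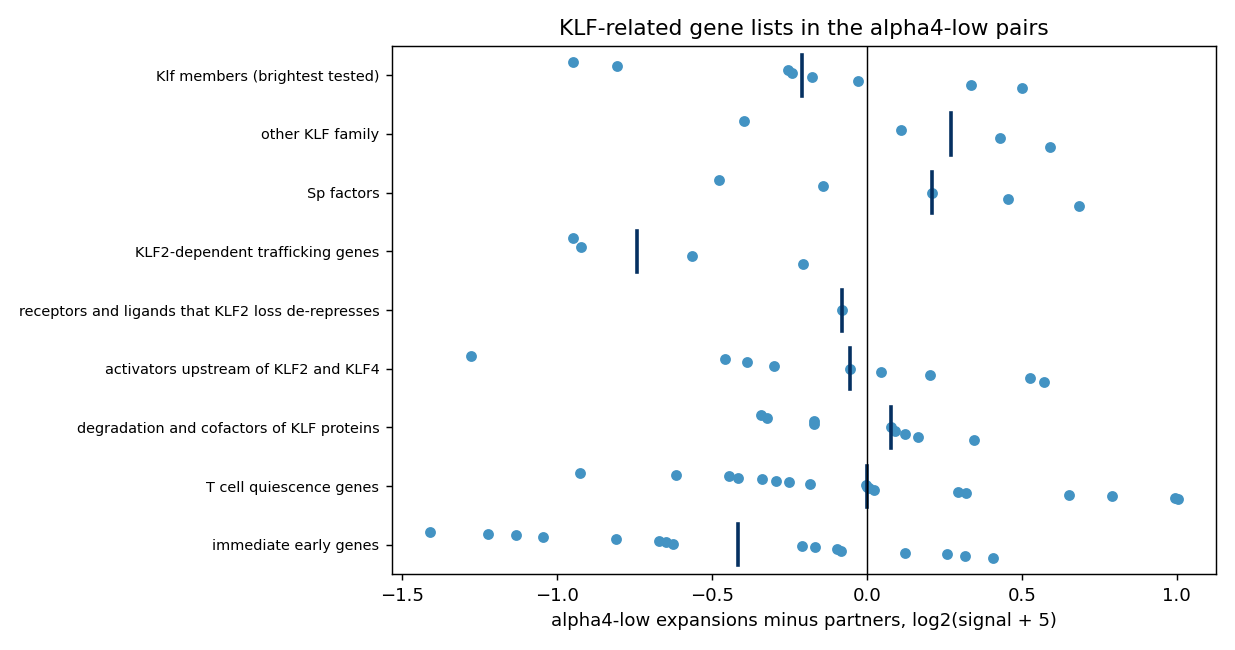
Alpha4-low coefficient (expansions minus partners, log2(signal + 5)) of each tested gene, as 1 point at its brightest tested probe set, for the Klf members and the 8 related lists, with vertical bars at the list medians. The KLF2-dependent trafficking genes (median -0.74) and the immediate early genes (median -0.42) lie mostly below 0, and the quiescence genes are spread evenly about it; no point passed the test.

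Markers of other cells were uneven across the samples. The summed signal of 5 B cell markers ran from 606 to 1169 in the alpha4-low expansions and from 540.5 to 1218 in the polyclonal samples, and that of 6 myeloid markers from 1422 to 2182 and from 670.2 to 1773. Expansion 1, the alpha4-high sample, had the highest myeloid sum of all 8 samples, 2890, and a B cell sum of 1180. Of the 4 measured NK cell markers, Ncr1 was below background on every array, and the sum was 26877 in expansion 1 and ran from 8773 to 19532.0 in the alpha4-low expansions and from 16854 to 37014 in the polyclonal samples. Eomes, a transcription factor gene that memory CD8 T cells also express, made up much of it, at 8505 to 21207 over the 8 arrays. Klra8, an NK cell receptor gene, was at 15079 and 21818 in polyclonal samples 2 and 4 and between 49.1 and 1103 in the other 6 samples. The CD4 T cell markers Cd4, Ctla4 and Foxp3 summed to 98.7 to 207 in the alpha4-low expansions and 520 to 2354 in the polyclonal samples, where Ctla4 made up most of the sum. Expansion 1 had the highest sum of all 8 samples, 4292, of which Ctla4 gave 4214, while Cd4 itself was at 6.55, below background. The subclass differences of Klf2 and Foxo3 therefore rest on a sample that also had the highest myeloid and CD4 T cell marker sums. Its B cell and NK cell sums lay within the range of the polyclonal samples. The dendritic, endothelial and erythroid lists summed to at most 995, 192 and 95.6. The part of these markers in the Klf values was not tested.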

How the data were processed

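Gene expression was measured on 8 Affymetrix Mouse Genome 430 2.0 arrays. Per the labels' protocols, RNA of all samples was isolated in parallel, amplified in 2 rounds and labelled with biotin, which favours the 3' ends of transcripts. The deposited values are linear intensities for 45101 probe sets, made by the authors with MAS5 per the submitters' processing notes (version not given in the sources used here), and on each array their 2% trimmed mean was 500. They carry no detection calls, and precision is limited by how few arrays there are. The scanner record of expansion 4 differs from that of the other 7 arrays and cannot be told apart from the sample itself.

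Tests used log2(value + 5). The 64 control probe sets and those with a mean not above the median (a signal of about 45.3) were left out, which kept 22518. limma 3.58.1 (R 4.3.3; lmFit and eBayes, trend by intensity) fitted the models, with mouse as a block because the study pairs the samples of each animal, and with Benjamini-Hochberg adjustment over all 22518 and a two-sided threshold of 0.05. Separate alpha4-low and alpha4-high coefficients left 2 residual degrees of freedom, and a single coefficient left 3. As a check of the pairing, the 2 samples of mice 1 to 4 correlated at 0.374, 0.0771, 0.214 and 0.338 in how they deviated from their group means. For mice 2 and 3 the expansion correlated better with another animal's polyclonal sample, at 0.131 and 0.301, and the pairs follow the numbers in the titles, from which the descriptions differ for expansions 3 and 4. Labels name 4 animals with 1 sample per population each. With mouse as a block, differences in level between animals are taken out. The alpha4-low and subclass p-values thus rest on the spread of differences among the 3 alpha4-low pairs, with variance information shared over all tested probe sets. They hold no spread between alpha4-high animals. With a single coefficient the spread is that of the differences of all 4 pairs.

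Gene names came from the platform annotation, and probe sets listed with several genes were left unnamed. Lists use the brightest tested probe set of each gene, and up to 4 members with the largest alpha4-low coefficient were named, with the 3 genes of highest correlation for each Klf member. The members and lists were chosen with earlier results of these data known. Promoters came from RefSeq (GRCm38.p6). A planned search for protein features was not run. The models were tested on simulated data. Alternatives covered the pseudocount, filter, scaling, variance trend, replicate block, sort purity and the omission of each pair. Figures were drawn with matplotlib 3.10.9.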

Additional observations from a re-analysis of the deposited data

Results flagged for a closer look

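In 23 groups of 4 polyclonal samples, 1 for each tested Klf probe set, 2 had a sample set apart from the rest, where chance alone sets apart about 1 in 20 such groups. For Klf6 1418280_at the gap between polyclonal sample 2, at 618, and its nearest neighbour was 0.886 of the whole range, and for Klf13 1436316_at the gap below polyclonal sample 2, at 4108, was 0.885. Both are above the critical value of Dixon's test for 4 samples. Polyclonal sample 2 had a sort purity of 75%, and its part in these values was not tested.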

How the results depend on the processing

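Limits come first from 4 mice, 1 of them alpha4-high, and from polyclonal partners of unequal purity. No Klf probe set passed the threshold under any alternative. Of 46 Klf values, 23 probe sets in 2 comparisons, recomputed 435 times, 387 kept their sign and 48 changed it, and 25 values changed sign at least once; the lowest adjusted p was 0.114. Causes of these shifts were not tested. With a pair left out, 35 of the 46 moved by over 1.5 times or changed sign.

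For the alpha4-low comparison, the count of called probe sets, 12, became 6 with quantile normalization, 0 without the intensity trend, 0 without the replicate block (621 with an unadjusted p under 0.05) and 18 to 157 with a pair left out. For the subclass difference, 12 became 0 with pseudocount 1, 29 with pseudocount 30, 25 without the filter, 0 with quantile normalization, 0 without the trend, 143 without the replicate block and 64 to 277 with a pair left out. Over all pairs 0 became 0 to 14 with a pair left out, 14 being without pair 1.

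Without the replicate block the alpha4-low values of Klf4 1417394_at, Klf7 1419354_at, Klf12 1439847_s_at and Sp7 were 0.14, 0.033, 0.11 and 0.18, and the subclass difference of Klf13 1436316_at was 0.33. With purity as a covariate the values were 1.19 for Klf4 1417394_at, 0.69 for Klf4 1417395_at, 2.65 for Klf12 1439847_s_at, -1.08 for Klf9, 0.094 for S1pr1, 0.076 for Ctbp1, 0.36 for Slfn2, -0.53 for Foxp1, 0.13 for Egr2, 0.26 for Ier2, -0.018 for Klf6 1418280_at and -0.26 for Ccl5, which was -0.25 with quantile normalization. With a pair left out, the alpha4-low values ran from -0.68 to 0.31 for Klf4 1417394_at, -0.74 to 0.19 for Klf6 1447448_s_at, -0.80 to 0.026 for Klf7 1419354_at, -1.61 to 0.85 for Klf12 1439847_s_at, -0.68 to 1.11 for Klf9, -0.84 to 0.077 for Klf11, -0.15 to 0.45 for Klf14, -0.44 to 0.13 for Cxcr3, -0.86 to 0.076 for Mef2d, -0.30 to 0.0056 for Sin3a, -0.25 to 0.25 for Ccl5 and -0.12 to 1.29 for Foxp1. The subclass differences ran from -0.36 to 0.63 for Klf4 1417394_at and from -0.50 to 0.13 for Klf13 1436316_at.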
